A study of Mus musculus with 28 samples.

Results

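The extracellular matrix of skin is cut and remodelled by families of zinc proteases, and the genes of these families and of their tissue inhibitors were described across 14 cell populations of developing mouse hair follicles. The genes were taken by symbol alone: Mmp, Adamts or Adamtsl followed by a number (with a or b where present), and Timp followed by a digit. They numbered 51 of the 23015 genes in the deposited table, namely 23 Mmp, 19 Adamts, 5 Adamtsl and 4 Timp genes. In all, 37 of the 51 (13 Mmp, 17 Adamts, 3 Adamtsl and 4 Timp) reached 1 FPKM in at least 2 of the 28 libraries and were tested. The other 14 did not pass this filter.

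Matrix metalloproteinases (MMPs) are made as inactive precursors and are secreted or, as membrane-type MMPs, anchored at the cell surface. Their substrates include collagens, laminins and other matrix proteins. Secreted ADAMTS proteases cut proteoglycans such as versican and aggrecan or trim procollagens, and ADAMTS-like proteins share their ancillary domains but lack the protease domain. TIMPs bind the active site of MMPs, and Timp3, which is held in the matrix, also inhibits several ADAM and ADAMTS proteases. In growing follicles, epithelium advances into dermis and the dermal papilla keeps a matrix rich in versican.

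Back skin of mice aged 5 days after birth was dissociated and sorted, on a mixed background of FVB/N, C57BI/6J and CD1, and each population gave 2 libraries. All but HF-SC and HF-ORS came from mice that also carried Lef1-RFP. In the K14-H2BGFP line, where the keratin 14 promoter marks nuclei of keratinocytes, Neg was the mixture of cells without markers. DP (dermal papilla) was Lef1-RFP+ with high ITGA9, the integrin alpha 9 chain, Mc (melanocytes) was Lef1-RFP+ and CD117+, and DF (dermal fibroblasts) was Lef1-RFP+ without CD117 or ITGA9. TAC, the progenitors of the hair matrix, combined dim GFP with Lef1-RFP, Mx (matrix) was the dim GFP fraction, ORS (outer root sheath) the bright GFP fraction of the dermal preparation, and Epi the GFP+ fraction of the epidermal preparation. Papillae were split by a Sox2-GFP reporter into G/AA-DP (GFP+, guard and awl/auchene follicles) and ZZ-DP (GFP-, zigzag follicles), and by a Crabp1-GFP reporter into G-DP (GFP-) and AA/ZZ-DP (GFP+). In a K14-RFP Sox9-GFP line, RFP-bright, ITGA6-bright cells were divided into HF-SC (Sox9-GFP+, stem cell precursors) and HF-ORS (Sox9-GFP-). In such bulk samples, fewer cells of a type and less RNA per cell cannot be told apart.

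Values are FPKM, which allow levels of different genes to be compared per transcript length, and are given for both libraries of a population. Sequencing depth is unknown, so no counting interval is given, and totals ran from 285981 to 515224 FPKM with 10951 to 12497 genes at 1 FPKM or more. Malat1, a nuclear RNA of most cells, was listed at 0 in 10 of 28 libraries. An exact 0, written here as 0 or as listed at 0, can therefore be a failed estimate. Summed marker levels followed the labels: papilla markers reached 1868 to 3890 FPKM in the 10 papilla libraries and at most 614 elsewhere, melanocyte markers 16060 and 12800 in Mc, and endothelial markers 201 and 289 in Neg against at most 15.6 elsewhere. DF also held melanocyte (1361 and 1323 FPKM), keratinocyte (1045 and 300) and pericyte markers (723 and 688), and its fibroblast markers summed to 2123 and 4889. Melanocyte markers also reached 1076 and 1023 in G-DP and 727 in ZZ-DP replicate 2. Whether the 2 replicates are separate animals is not stated, so p-values may measure only technical spread.

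The families were unevenly spread over the populations. A mean of 5 FPKM or more in at least 1 population was reached by 28 of the 51 genes, and 9 more passed the filter below that level. DF had the most genes at that level (23), followed by DP with 21 and the papilla subtypes with 16 to 19. ORS, HF-SC and Neg each had 12, HF-ORS 8, Epi, Mx and Mc each 7, and TAC 6. Among all genes, too, DF had the most at 1 FPKM or more (12497 and 12401), and counts at 5 FPKM were not made. Of the 28 genes, 7 had their highest mean in DF, 3 in DP and 8 in a papilla subtype, so 18 peaked in mesenchyme, to which DF and all papilla sorts belong. Where all genes peak was not counted, so these numbers are a description. The remaining 10 peaked in ORS (Timp3, Adamts19, Adamts20), HF-SC (Adamts1, Adamts17, Adamtsl1), HF-ORS (Mmp3, Adamtsl5), Epi (Adamts14) or Mc (Mmp16). Over the 8 populations of the K14-H2BGFP line, 32 of the 37 tested genes varied (limma F test, adjusted p under 0.05), where 48.9% of all genes tested did.

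**Figure D1:**
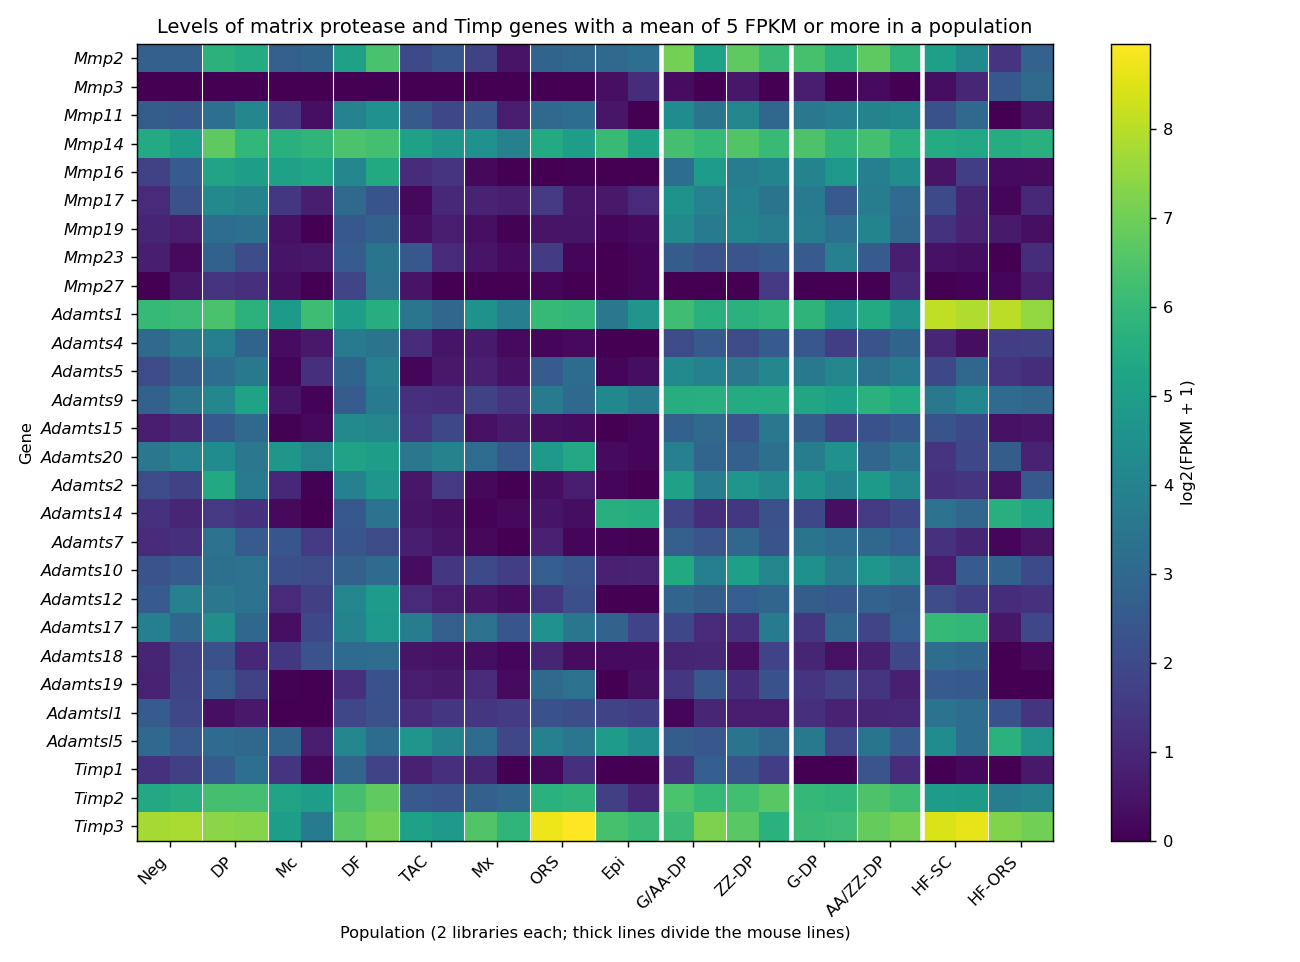
Heatmap of log2(FPKM + 1) for the 28 genes that averaged 5 FPKM or more in some population, 1 row per gene ordered by role and 1 column per library, 2 for each of the 14 populations. Timp3 is brightest in ORS, where its 2 libraries hold 428 and 496 FPKM, Adamts14 is bright in Epi and HF-ORS, and most other rows are bright in the DP and DF columns.

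Mmp2, Mmp14 and Timp2 form a known set: Timp2 bridges the precursor of Mmp2, gelatinase A, to the membrane protease Mmp14, which then starts its activation. All 3 were among the genes higher in mesenchyme (DP and DF, equal weight) than in epithelium (Epi, ORS, Mx and TAC, equal weight). Mmp2 had 53.3 and 44.5 FPKM in DP and 33.6 and 82.0 in DF, against 0.389 to 8.64 with a median of 5.36 in the 8 epithelial libraries. Timp2 had 77.8 and 76.0 FPKM in DP and 78.4 and 108 in DF, against 1.06 to 55.2 with a median of 5.23 in epithelium. The groups did not overlap for either gene, and the epithelial high values of Timp2 were those of ORS (51.6 and 55.2). Mmp14 had 106 and 59.7 FPKM in DP and 84.1 and 77.1 in DF, against 13.8 to 67.0 with a median of 32.4 in epithelium. Here the groups overlapped through Epi replicate 1, and Mmp14 stayed above 13 FPKM in every library. The differences of log2(FPKM + 1), which understate the change of low genes, were 3.33 ± 0.35 (SE) for Mmp2, 3.31 ± 0.15 for Timp2 and 1.35 ± 0.22 for Mmp14. The limma p-values adjusted by Benjamini-Hochberg were 1.82e-07 for Mmp2, 9.88e-13 for Timp2 and 3.39e-05 for Mmp14.

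Across the families, 24 of 37 tested genes were higher in mesenchyme than in epithelium and 0 were lower, while 14.5% of all genes tested were called higher, 11.5% lower and 26% either way. A call needed an adjusted p under 0.05 and a log2 difference of at least 1. The higher genes were 8 of 13 Mmp, 13 of 17 Adamts, 1 of 3 Adamtsl and 2 of 4 Timp genes. These Mmp genes include Mmp27, which passed the filter only through mesenchymal libraries. The median log2 difference was 1.39 over the 37 genes and -0.05 over all genes tested. For 17 of the 24 the 4 mesenchymal libraries all lay above the 8 epithelial ones. Such separation was not counted over all genes in any comparison, so it is a description and adds nothing to the calls. With a pseudocount of 5 in place of 1 the count was 13. Such a pseudocount shrinks differences, most of all those of low genes, and the lost calls included Adamts20 (means of 24.2 and 13.4 FPKM) and Adamts9 (17.3 and 6.92). Called higher in mesenchyme were also 8 of 8 melanocyte, 7 of 8 Schwann cell and 7 of 9 pericyte markers, and their part in these differences was not tested.

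**Figure D2:**
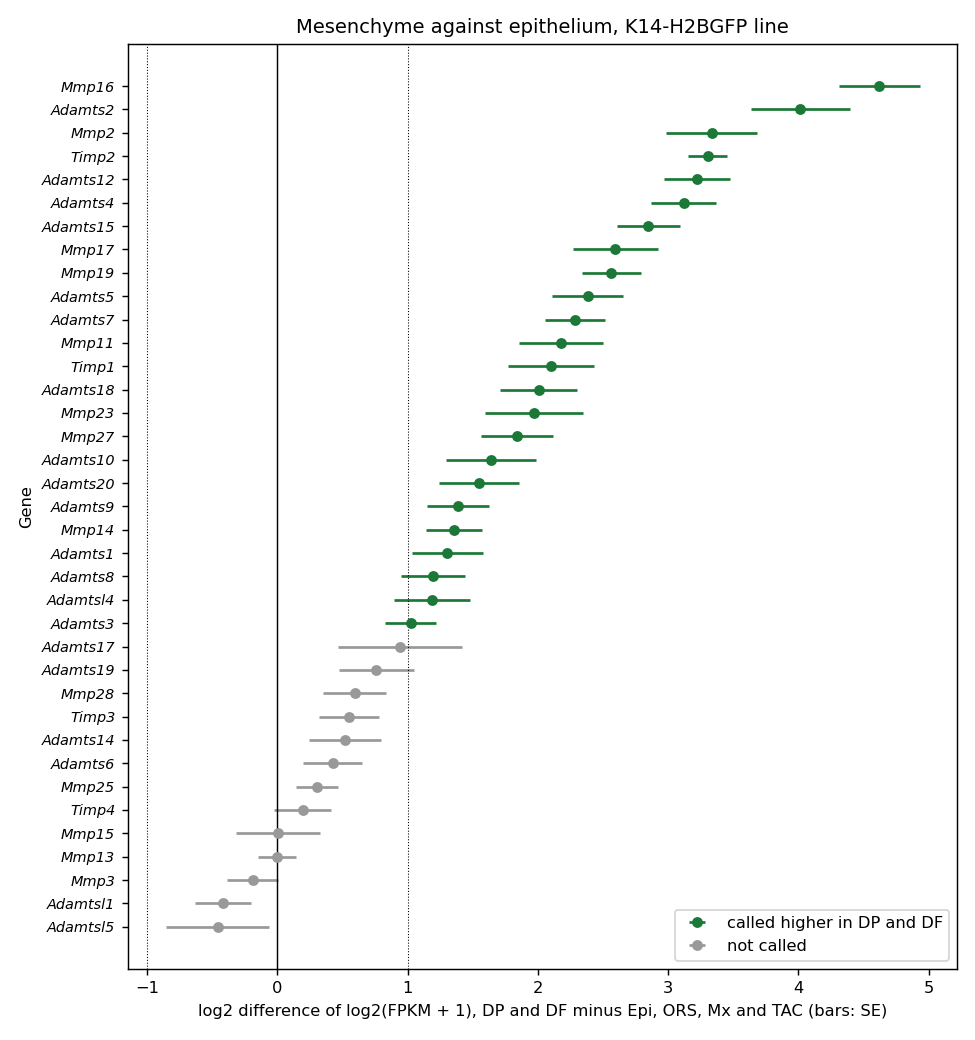
Difference of log2(FPKM + 1) between mesenchyme (DP and DF) and epithelium (Epi, ORS, Mx and TAC) for the 37 tested genes, with SE bars and dotted lines at a difference of 1 either way. The 24 called genes, in green, lie on the right from 1.02 to 4.62, and the 13 others, in grey, from -0.46 to 0.94.

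Among the membrane-type MMPs other than Mmp14, Mmp16 and Mmp17 were called higher. Mmp16 had 36.7 and 31.4 FPKM in DP and 16.8 and 42.2 in DF, against at most 1.61 in epithelium with a median of 0.0127 (log2 difference 4.62 ± 0.31, adjusted p = 3.11e-10). Mmp17, which is held by a lipid anchor, had 17.5 and 15.0 FPKM in DP and 7.57 and 4.05 in DF, against 0.133 to 1.82 in epithelium with a median of 0.741 (2.59 ± 0.33). Neither gene's groups overlapped. Mmp15 was near 1 FPKM in both, with means of 1.15 in mesenchyme and 1.20 in epithelium, and Mmp24 did not pass the filter. Mmp25 had 0.595 and 0.450 FPKM in DP and was listed at 0 in DF and in the 8 epithelial libraries, without a call.

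Among the MMPs not classed as membrane-type, Mmp11 is a stromelysin that leaves the cell already active. It had 8.62 and 16.6 FPKM in DP and 14.8 and 21.9 in DF, against 0 to 8.48 in epithelium with a median of 3.49 (log2 difference 2.17 ± 0.32). Mmp19 had 8.18 and 8.89 FPKM in DP and 4.49 and 5.83 in DF, against 0.0399 to 0.663 in epithelium with a median of 0.291 (2.56 ± 0.23). Both sets of libraries stood apart, and ORS held the epithelial high of Mmp11. Mmp23 had 5.86 and 3.38 FPKM in DP and 5.03 and 10.2 in DF, against 0 to 4.59 in epithelium with a median of 0.308 (1.97 ± 0.37). TAC replicate 1 lay above DP replicate 2, so these groups overlapped. Mmp27, below 5 FPKM in the mean of DP and DF, was also counted as higher. It reached 1 FPKM only in mesenchymal libraries, so it passed the filter through the side where it is high. Its values are a description: 1.54 and 1.28 FPKM in DP and 2.67 and 9.06 in DF, against at most 0.383 in epithelium. With a pseudocount of 5 its call was lost. Exons of Mmp19 share 789 bases with Tmem198b on the other strand in GENCODE M21, and as the strand of the counting is not stated their reads cannot be told apart.

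The ADAMTS proteases that cut versican and related proteoglycans were all called higher in mesenchyme: 7 of 7 tested, with Adamts8 below 5 FPKM. The calls of Adamts8, Adamts9 and Adamts20 were lost with a pseudocount of 5, and that of Adamts8 also with quantile normalization. Adamts4 had 13.6 and 6.46 FPKM in DP and 12.1 and 9.88 in DF, against 0 to 1.20 in epithelium with a median of 0.169 (log2 difference 3.12 ± 0.25). Adamts15 had 4.79 and 7.39 FPKM in DP and 18.1 and 16.0 in DF, against 0 to 2.84 with a median of 0.293 (2.85 ± 0.24). The groups of these genes did not overlap. Adamts5 had 8.22 and 11.4 FPKM in DP and 6.48 and 14.1 in DF, against 0.0978 to 8.07 in epithelium with a median of 0.445 (2.38 ± 0.27). ORS (5.08 and 8.07) gave its overlap. Adamts1 had 83.4 and 53.2 FPKM in DP and 31.5 and 47.3 in DF, against 6.79 to 63.6 in epithelium with a median of 18.2 (1.31 ± 0.27). It was higher still in the sheath sorts HF-SC (276 and 234) and HF-ORS (257 and 182), which this contrast leaves out. For Adamts9 the values were 16.7 and 35.7 FPKM in DP and 5.13 and 11.7 in DF, against 1.21 to 17.2 in epithelium with a median of 4.89 (1.39 ± 0.24). Both overlapped, through ORS for Adamts1 and through Epi and ORS for Adamts9. Adamts20, the gene mutated in belted mice, which lack pigment cells in a band of the trunk, had 19.7 and 10.7 FPKM in DP and 35.1 and 31.2 in DF, against 0.0891 to 41.6 in epithelium with a median of 9.43 (1.55 ± 0.31). ORS held its highest value. Exons of Adamts9 share 424 bases with Gm15737 and 166 with A730049H05Rik, and those of Adamts8 489 bases with Gm29724, on the other strand.

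The procollagen N-proteinases, which remove the amino-terminal propeptide of fibrillar procollagens, divided between the layers. Adamts2 had 42.8 and 12.1 FPKM in DP and 14.2 and 24.3 in DF, against 0 to 1.77 in epithelium with a median of 0.208 (log2 difference 4.01 ± 0.38, adjusted p = 4.68e-08), without overlap. Adamts3 stayed below 3 FPKM in every library, with a call near the threshold (1.02 ± 0.20). That call was lost with a pseudocount of 5, with quantile normalization, and without replicate 1 of DP, DF or ORS. Adamts14 was not called, with means of 4.36 FPKM in mesenchyme and 11.9 in epithelium. Its epithelial level was that of Epi (48.0 and 45.8 FPKM), while ORS, Mx and TAC were below 0.5. It was called higher in Epi than in each of the other 7 populations of that line, next to DF with 4.49 and 9.69 FPKM (2.64 ± 0.45, adjusted p = 0.000137). Such signature genes of Epi made up 1.91% of all genes tested, and those of any of the 8 populations 8.26%. Adamts15 was the other signature gene among the 37, of DF, whose signature held 0.312% of all genes tested. It lost that place with a pseudocount of 0.1 or 5 and when any 1 library of DP, DF, Epi, ORS or Mx was left out. Adamts14 kept its place under every alternative run.

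Of the other ADAMTS genes, Adamts12, Adamts7, Adamts10 and Adamts18 were called higher in mesenchyme. Adamts12, which cuts cartilage oligomeric matrix protein, had 10.8 and 9.28 FPKM in DP and 16.4 and 29.0 in DF, against 0 to 3.57 in epithelium with a median of 0.491 (log2 difference 3.22 ± 0.25). Adamts7, which cuts the same protein, had 9.26 and 4.99 FPKM in DP and 4.28 and 3.22 in DF, against 0 to 0.765 with a median of 0.127 (2.28 ± 0.23). Adamts10, which binds fibrillin, had 9.002 and 9.43 FPKM in DP and 5.72 and 7.74 in DF, against 0.218 to 5.45 with a median of 1.88 (1.64 ± 0.35). The groups stood apart for all 3, narrowly for Adamts10 through ORS. Adamts18 had 3.72 and 1.04 FPKM in DP and 7.78 and 8.19 in DF, against 0.105 to 0.921 in epithelium with a median of 0.241 (2.00 ± 0.30). Exons of Adamts7 share 122 bases with Tbc1d2b on the other strand. Adamts17 was not called, and among the ADAMTS-like genes only Adamtsl4, below 5 FPKM in mesenchyme, was. Adamtsl5 had 7.80 and 7.13 FPKM in DP and 16.1 and 7.99 in DF, against 2.73 to 29.99 in epithelium with a median of 14.6, without a call.

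The Timp genes had unlike profiles. Timp3 had the highest mean of the 51 genes in 10 of 14 populations, all but Mc, ZZ-DP, G-DP and HF-ORS, with 428 and 496 FPKM in ORS, 213 and 228 in Neg, 168 and 160 in DP and 100.0 and 132 in DF. It had 90.2 and 57.5 FPKM in Mx, 80.2 and 66.7 in Epi, 34.1 and 27.6 in TAC and 31.4 and 12.3 in Mc. In that order of the 8 populations, only Epi and TAC were called different among neighbours (1.23 ± 0.38, adjusted p = 0.0336), and ORS did not differ beyond the spread from Neg (1.06 ± 0.38, adjusted p = 0.166). Between mesenchyme and epithelium Timp3 was not called, with means of 139.9 and 160.1 FPKM. Timp2 was high in DF, DP, ORS, Neg and Mc (30.7 to 108 FPKM) and low in Mx, TAC and Epi (1.06 to 6.70), and Mc against Mx was the first neighbouring pair to be called (2.25 ± 0.24, adjusted p = 7.34e-07). Timp1 stayed below 9 FPKM in every library, with 5.06 and 8.67 FPKM in DP and 6.50 and 2.57 in DF, against 0 to 1.39 in epithelium with a median of 0.455 (2.099 ± 0.33). Timp4 was below 3 FPKM in every library, and its exons share 90 bases with Syn2 on the other strand.

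**Figure D3:**
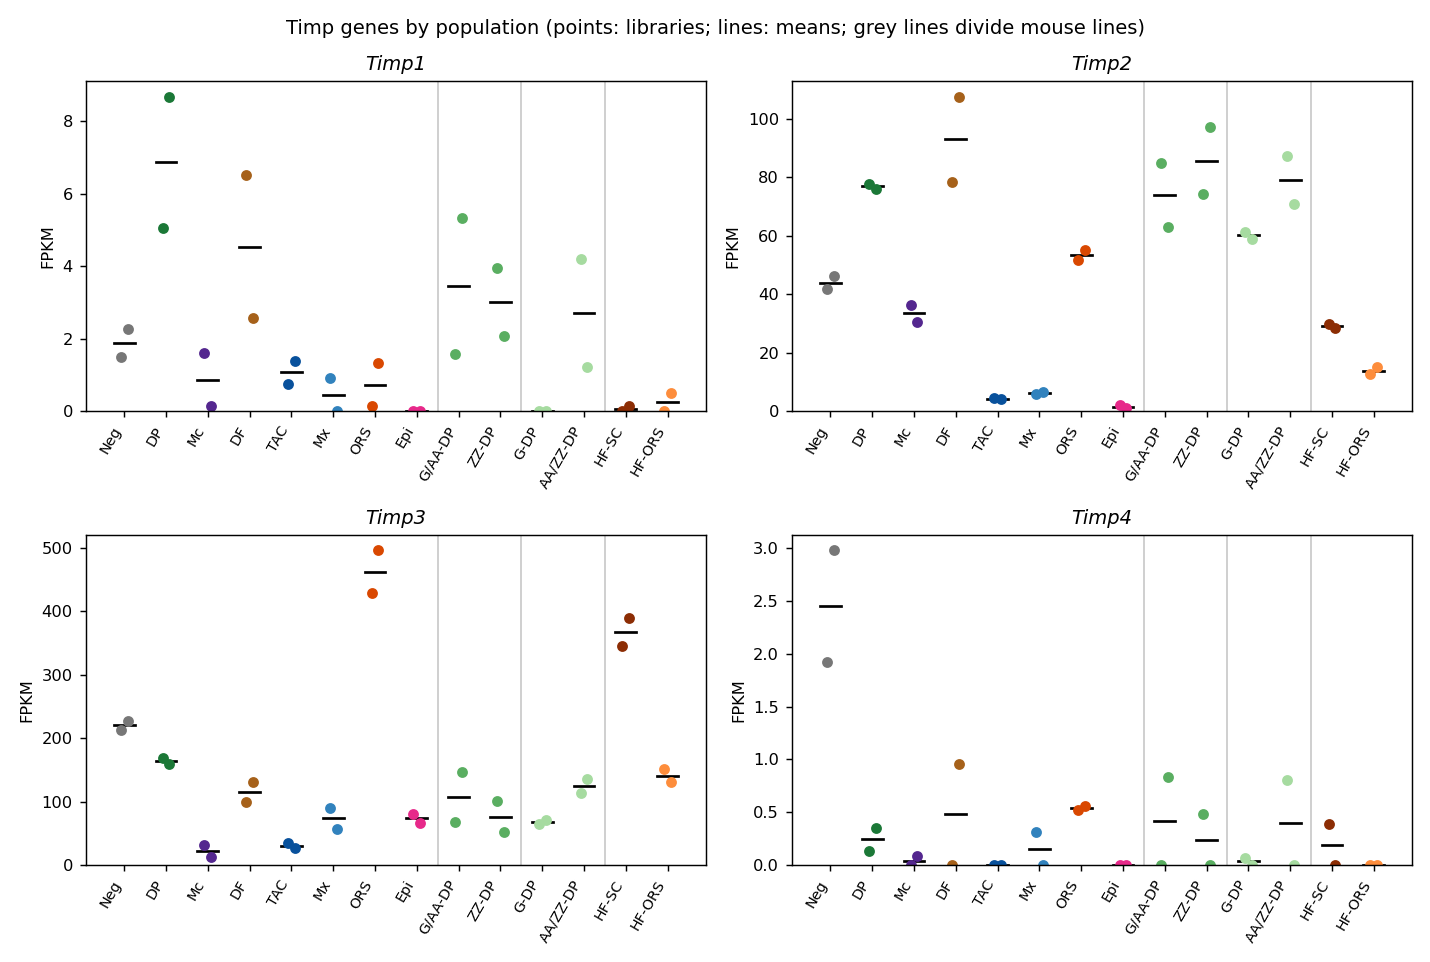
FPKM of Timp1, Timp2, Timp3 and Timp4 in the 14 populations on linear axes that differ between panels, with points for libraries and black lines for means. Timp3 is highest in ORS and HF-SC, Timp2 is above 28 FPKM in all populations except TAC, Mx, Epi and HF-ORS, and Timp1 and Timp4 stay below 9 FPKM.

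The balance of transcripts between inhibitors and MMPs is given as a description, with no test, because sums over genes rest on a few abundant members. Summed Timp FPKM divided by summed Mmp FPKM was 7.55 and 11.3 in ORS, 4.17 and 5.02 in Neg, 4.14 and 5.34 in HF-SC, and 3.14 and 3.87 in Mx. It was 2.47 and 1.92 in HF-ORS, 1.04 and 1.33 in DP, 1.08 and 0.954 in DF, 0.997 and 1.34 in Epi, 0.809 and 0.910 in TAC, and 0.723 and 0.421 in Mc. The 8 libraries of the papilla subtypes ran from 0.513 to 1.27. Timp3 made up 81.5% to 98.4% of summed Timp FPKM in Neg and in the epithelial populations, including those of the Sox9-GFP line, against 54.1% to 66.9% in DP and DF and 45.2% and 28.4% in Mc.

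**Figure D4:**
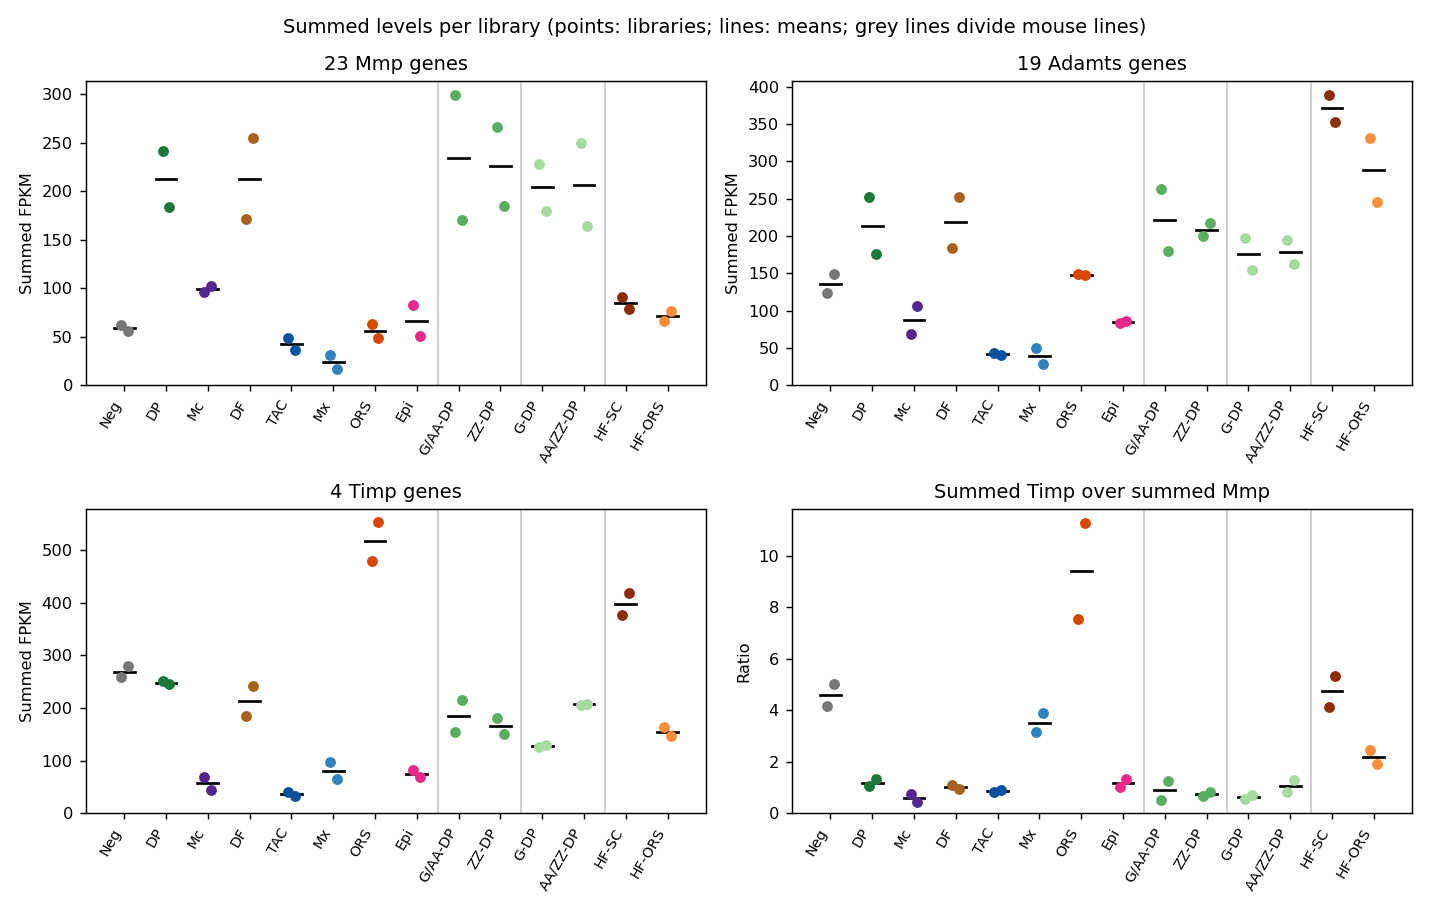
Summed FPKM of the 23 Mmp, 19 Adamts and 4 Timp genes per library, and the ratio of summed Timp to summed Mmp, in the 14 populations, with points for libraries and black lines for means. Mmp sums are highest in the papilla populations and DF, Adamts sums in HF-SC and HF-ORS through Adamts1, and the ratio in ORS, at 7.55 and 11.3.

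Genes that work with these proteases were described from 3 lists. Of 15 tested matrix substrates, 11 were higher in mesenchyme than in epithelium and 1 was lower, with a median log2 difference of 3.67. The largest were the fibrillar collagen genes Col3a1 (means of 1225 and 19.8 FPKM), Col1a2 and Col1a1, and Vcan, which encodes versican (1045 and 22.8), was also higher. Col17a1, a collagen of hemidesmosomes, was lower (4.50 and 186). Of 15 genes of the plasmin system and other MMP regulators, 5 were higher and 2 lower. Serpine2, an inhibitor of plasminogen activators and thrombin, averaged 294 FPKM in mesenchyme and 4.05 in epithelium, and Reck, a membrane-anchored MMP inhibitor, 37.2 and 1.78. Plau, the urokinase gene, was lower at 2.58 FPKM against 14.7. Of 19 other matrix proteases, 7 were higher and 0 lower, among them Ctsk, the cathepsin K gene (29.1 and 0.805), and Adam33, Adam12 and Fap.

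DP was compared with DF to ask what sets the papilla apart from the fibroblasts around it. Of 37 genes, 1 was higher and 4 lower in DP, where 2.44% of all genes tested were called higher, 4.25% lower and 6.69% either way. Adamts9, a versican-cutting protease, had 16.7 and 35.7 FPKM in DP and 5.13 and 11.7 in DF (log2 difference 1.53 ± 0.39, adjusted p = 0.0173). Adamts15, of the same group, had 4.79 and 7.39 FPKM in DP and 18.1 and 16.0 in DF (-1.37 ± 0.39, adjusted p = 0.0393). Adamts14 had 1.84 and 1.43 FPKM in DP and 4.49 and 9.69 in DF (-1.54 ± 0.45, adjusted p = 0.0415). In all 3 the libraries of DP and DF did not overlap, nor did those of uncalled genes such as Timp2 and Timp3. Adamts8 and Adamtsl1, named after their values were seen, were also lower in DP, at means of 0.544 and 0.402 FPKM against 3.51 and 3.18 in DF. None of the 13 Mmp and 4 Timp genes tested was called, and 12 of the 37 genes had an unadjusted p under 0.05.

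Each of these 5 calls was lost without at least 1 of the 4 libraries. Adamts9 was the only one of the 5 still called without DP replicate 1 or without DF replicate 2, Adamtsl1 the only one without DP replicate 2, and Adamts8, Adamts14 and Adamtsl1 were called without DF replicate 1. With a pseudocount of 0.1 the calls of Adamts9, Adamts8, Adamts15 and Adamts14 were lost. A pseudocount of 5 ended those of Adamts8, Adamts15, Adamts14 and Adamtsl1. The call of Adamts9 was also lost with the libraries of its own line alone. Quantile normalization ended that of Adamts8, and leaving out the filter that of Adamts14. Pericyte markers summed to 46.7 and 48.5 FPKM in DP and 723 and 688 in DF, and keratinocyte markers to 78.4 and 123.6 in DP and 1045 and 299.6 in DF. Called lower in DP were 7 of 9 pericyte, 8 of 8 melanocyte and 8 of 10 keratinocyte markers, and their part in these differences was not tested. Vcan, the shared substrate, was higher in DP with 1880 and 1526 FPKM against 319 and 454 in DF (2.15 ± 0.40, adjusted p = 0.00174), 1 of 15 substrates higher beside 4 that were lower (Eln, Fn1, Col17a1 and Col7a1). Of the regulators Serpine2 and Lrp1, a receptor that clears proteases, were higher in DP and 0 lower, and of the other proteases Adam12, Adam19 and Adam10 were lower and 0 higher.

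Mc was set against DF, both Lef1-RFP+, to separate pigment cells from fibroblasts. In Mc, 21 of the 37 genes were lower than in DF and 0 were higher, while 11.5% of all genes tested were called lower, 6.67% higher and 18.2% either way. The libraries did not overlap for any of the 21, nor for uncalled genes such as Mmp14 and Adamts20. The largest difference was that of Adamts15, with 0.0402 and 0.139 FPKM in Mc and 18.1 and 16.0 in DF (log2 difference -4.05 ± 0.39, adjusted p = 2.71e-07). Adamts2 had 1.02 and 0.0282 FPKM in Mc and 14.2 and 24.3 in DF (-3.77 ± 0.62). Mmp11 had 1.66 and 0.294 FPKM in Mc and 14.8 and 21.9 in DF (-3.36 ± 0.53). Mmp2 had 5.62 and 6.44 FPKM in Mc and 33.6 and 82.0 in DF (-2.93 ± 0.57, adjusted p = 0.000766). All 4 were lower in both Mc libraries than in either DF library.

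Among inhibitors, Timp3 had 31.4 and 12.3 FPKM in Mc and 100.0 and 132 in DF (-2.48 ± 0.38, adjusted p = 6.83e-05). Timp2 had 36.5 and 30.7 in Mc and 78.4 and 108 in DF (-1.43 ± 0.24, adjusted p = 0.000208). Timp1 had 1.60 and 0.148 FPKM in Mc and 6.50 and 2.57 in DF, with an adjusted p of 0.0451. Its call was lost with either other pseudocount, with quantile normalization, without the filter and without DF replicate 1 or Mc replicate 2. Timp4 was not called.

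Of the proteoglycan-cutting group, Adamts4 had 0.225 and 0.518 FPKM in Mc and 12.1 and 9.88 in DF. Adamts5 had 0.106 and 1.29 FPKM in Mc and 6.48 and 14.1 in DF. Adamts9 had 0.426 and 0.0684 FPKM in Mc and 5.13 and 11.7 in DF. Each lay far below both DF libraries in both Mc libraries. Adamts12 had 1.12 and 2.28 FPKM in Mc and 16.4 and 29.0 in DF. Adamts14 had 0.163 and 0 FPKM in Mc and 4.49 and 9.69 in DF. Adamts17 had 0.276 and 2.82 FPKM in Mc and 15.0 and 26.5 in DF. Mc replicate 2 was the higher of the Mc libraries for Adamts12 and Adamts17. Among MMPs, Mmp17 had 1.73 and 0.699 FPKM in Mc and 7.57 and 4.05 in DF. Mmp19 had 0.314 and 0 FPKM in Mc and 4.49 and 5.83 in DF. Mmp23 had 0.425 and 0.489 FPKM in Mc and 5.03 and 10.2 in DF. The call of Mmp17 was lost without DF replicate 1 or either Mc library. It was also lost with either other pseudocount, with quantile normalization and without the filter. The calls of Mmp23 and Adamts17 were lost without DF replicate 2, and that of Adamts17 also without Mc replicate 1. Mmp27, which passed the filter only through DF and papilla libraries, had 0.247 and 0 FPKM in Mc and 2.67 and 9.06 in DF. Adamts8, listed at 0 in both Mc libraries, Adamts3, Adamts19 and Adamtsl1 were called too, at lower levels. With a pseudocount of 5 these calls and that of Mmp19 were lost. Quantile normalization ended those of Adamts3 and Adamts19. Adamts19 also lost its call without DF replicate 2 or either Mc library.

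A few proteases stayed at high levels in Mc and were not called. Mmp16 had 33.8 and 37.2 FPKM in Mc and 16.8 and 42.2 in DF. Mmp14 had 51.0 and 57.0 FPKM in Mc and 84.1 and 77.1 in DF. Adamts1 had 28.2 and 71.5 FPKM in Mc and 31.5 and 47.3 in DF. Mc and DF overlapped for Mmp16 and Adamts1 and not for Mmp14. Adamts20 had 26.1 and 16.0 FPKM in Mc and 35.1 and 31.2 in DF (-0.67 ± 0.50, adjusted p = 0.418). Of the 15 substrates 14 were lower in Mc, among them Vcan (12.3 and 386 FPKM in the mean). Plat, the tissue plasminogen activator gene, was higher with 128 and 216 FPKM in Mc against 10.7 and 13.3 in DF (3.69 ± 0.47, adjusted p = 7.13e-06). Adam10, a membrane protease that sheds cell surface proteins, averaged 114 FPKM in Mc and 34.2 in DF, and Ctsl 271 and 91.7. Melanocyte markers summed to 16060 and 12800 FPKM in Mc and 1361 and 1323 in DF. Pericyte markers, 9 of 9 called lower in Mc, summed to 14.3 and 5.93 FPKM in Mc and 723 and 688 in DF. Keratinocyte markers, 8 of 10 called lower and 1 higher in Mc, summed to 195 and 131 FPKM in Mc and 1045 and 299.6 in DF, and the part of these markers in the differences was not tested.

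Neg was set against the equally weighted log2 means of the other 7 populations of its line. Of the 37 genes, 5 were higher in Neg and 0 lower, where 3.53% of all genes tested were called higher, 0.452% lower and 3.99% either way. One of the 5, Timp4, an inhibitor known mainly from heart and fat, passed the filter only through the Neg libraries, so its values are a description. It had 1.92 and 2.98 FPKM in Neg and 0 to 0.959 with a median of 0.0414 in the other 14 libraries. For the other 4 the groups overlapped. Adamts4 had 7.62 and 10.96 FPKM in Neg against 0 to 13.6 with a median of 0.462 (log2 difference 2.08 ± 0.30, adjusted p = 0.000125). Timp3 had 213 and 228 FPKM in Neg against 12.3 to 496 with a median of 85.2 (1.39 ± 0.29, adjusted p = 0.00468). Timp2 had 41.8 and 46.3 FPKM in Neg against 1.06 to 108 with a median of 33.6 (1.16 ± 0.18). Adamts12 had 5.01 and 14.1 FPKM in Neg against 0 to 29.0 with a median of 1.41 (1.48 ± 0.31). For each of these 4 genes DF or ORS had a higher mean than Neg, so the calls stand against the average of the other populations and not against each. The call of Timp3 was lost without either Neg library (adjusted p of 0.0826 and 0.129), that of Adamts12 without Neg replicate 2 (0.455), and Timp4 was then not tested, which left 3 and 2 calls. Called higher in Neg were 10 of 10 endothelial, 9 of 9 pericyte, 7 of 10 leukocyte, 4 of 4 mast cell and 5 of 8 melanocyte markers. So were 5 of 7 outer root sheath and bulge, 3 of 10 keratinocyte, 3 of 7 hair matrix and 3 of 8 Schwann cell markers. Pericyte markers summed to 515 and 554 FPKM in Neg, and outer root sheath and bulge markers to 436 and 278 beside 871 and 699.7 in ORS, and the part of these markers in the result was not tested.

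In the epithelium, ORS was set against Epi to compare the follicle's outer layer with the surface. Of the 37 genes, 8 were higher in ORS and 2 lower, where 5.35% of all genes tested were called higher, 4.48% lower and 9.83% either way. Both abundant inhibitors were higher in ORS: Timp2 had 51.6 and 55.2 FPKM in ORS and 2.24 and 1.06 in Epi (log2 difference 4.40 ± 0.24, adjusted p = 3.08e-10). Timp3 had 428 and 496 FPKM in ORS and 80.2 and 66.7 in Epi (2.64 ± 0.38, adjusted p = 5.32e-05). The libraries of ORS and Epi did not overlap for any of the 10 called genes, nor for uncalled ones such as Adamts9 and Adamtsl5.

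Of the 7 proteoglycan-cutting proteases tested, 3 were higher in ORS and 0 lower. Adamts20 had 27.1 and 41.6 FPKM in ORS and 0.194 and 0.0891 in Epi (4.92 ± 0.50, adjusted p = 7.54e-07). Adamts1 had 63.6 and 59.3 FPKM in ORS and 11.2 and 24.2 in Epi (1.83 ± 0.45, adjusted p = 0.00876). Adamts5 had 5.08 and 8.07 FPKM in ORS and 0.126 and 0.248 in Epi (2.65 ± 0.45). The call of Adamts1 was lost without Epi replicate 1 or either ORS library. Mmp11 had 7.31 and 8.48 FPKM in ORS and 0.445 and 0 in Epi (2.88 ± 0.53, adjusted p = 0.000715). Adamts19 had 7.49 and 9.27 FPKM in ORS and 0.0190 and 0.305 in Epi (3.02 ± 0.47). Adamts12, at a mean of 2.64 FPKM in ORS, was listed at 0 in both Epi libraries.

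Lower in ORS was the procollagen protease Adamts14, with 0.408 and 0.268 FPKM in ORS and 48.0 and 45.8 in Epi (-5.16 ± 0.45, adjusted p = 9.99e-08). So was Mmp28, known as epilysin from its expression in epidermis, at 0.124 and 0.0541 FPKM in ORS and 3.43 and 3.37 in Epi. Its exons share 466 bases with 1700020L24Rik on the other strand. Of 15 substrates, 8 were higher in ORS and 2 lower: Bgn, a small proteoglycan (means of 187 and 3.87 FPKM), Col4a1, a basement membrane collagen, and Fn1 were the largest, and Col7a1 and Col17a1 were the lower ones. Plat was higher in ORS, with 21.9 and 20.5 FPKM against 4.40 and 3.97 in Epi. Klk8, a kallikrein of the surface layers, was lower, at 0.671 and 0.201 FPKM in ORS and 21.3 and 16.3 in Epi, and Adam8 was lower too. Suprabasal markers summed to 52.0 and 32.8 FPKM in ORS and 7366 and 5371 in Epi, with 3 of 5 tested called lower in ORS. Also lower in ORS were 4 of 10 keratinocyte markers and 1 of 9 pericyte markers. Higher in ORS were 5 of 7 outer root sheath and bulge and 3 of 7 hair matrix markers. So were 3 of 9 pericyte, 2 of 8 fibroblast and 2 of 8 melanocyte markers. The part of all these markers in the differences was not tested.

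Mx, the dim GFP fraction, was then set against ORS. Of the 37 genes, 7 were lower in Mx and 0 higher, where 2.64% of all genes tested were called lower, 1.2% higher and 3.83% either way. Timp2 had 5.79 and 6.70 FPKM in Mx and 51.6 and 55.2 in ORS (log2 difference -2.91 ± 0.24, adjusted p = 1.39e-06). Timp3 had 90.2 and 57.5 FPKM in Mx and 428 and 496 in ORS (-2.66 ± 0.38, adjusted p = 0.000291). These 2 calls held when any 1 library was left out. Adamts20 had 8.11 and 4.50 FPKM in Mx and 27.1 and 41.6 in ORS (-2.29 ± 0.50). Adamts1 had 22.998 and 13.4 in Mx and 63.6 and 59.3 in ORS (-1.75 ± 0.45). Adamts9 had 2.43 and 1.53 FPKM in Mx and 12.1 and 7.36 in ORS (-1.83 ± 0.39). For these 3 proteases as for the inhibitors, both Mx libraries lay below both ORS libraries. Adamts5 had 0.725 and 0.356 FPKM in Mx and 5.08 and 8.07 in ORS (-2.28 ± 0.45). Adamts19 had 1.14 and 0.192 in Mx and 7.49 and 9.27 in ORS (-2.55 ± 0.47). These libraries stood apart too, as did those of uncalled genes such as Mmp11 and Mmp14. Without Mx replicate 2 only the 2 Timp genes were still called, and without ORS replicate 2 the count was 4. Of the substrates 5 were lower in Mx, led by Col4a1, and 1, Dcn, was higher. Among markers, 4 of 7 of outer root sheath and bulge and 3 of 9 of pericytes were lower in Mx. Higher in Mx were 5 of 7 hair matrix, 2 of 8 papilla and 1 of 9 pericyte markers. Of 8 fibroblast markers 1 was higher and 1 lower, and the part of all these markers was not tested.

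TAC, the Lef1-RFP+ part of the dim GFP cells, was set against Mx. None of the 37 genes was called by limma, where 1.04% of all genes tested were called higher, 0.233% lower and 1.27% either way, and 7 had an unadjusted p under 0.05. The largest difference was that of Adamtsl5, with 25.02 and 14.9 FPKM in TAC and 7.97 and 2.73 in Mx (log2 difference 1.82 ± 0.65, adjusted p = 0.269). Timp3 had 34.1 and 27.6 FPKM in TAC and 90.2 and 57.5 in Mx (-1.20 ± 0.38, adjusted p = 0.177). Timp2 had 4.67 and 4.13 FPKM in TAC and 5.79 and 6.70 in Mx, without a call. Of the substrates, Col1a1, Col3a1 and Col1a2 were higher in TAC and 0 lower. Called higher in TAC were 4 of 8 fibroblast and 3 of 8 papilla markers, and 0 of either list were lower. Their median log2 differences were 2.25 for fibroblast and 1.76 for papilla markers. Fibroblast sums were 499 and 436 FPKM in TAC and 510 and 432 in Mx, so the sums do not show the difference of single markers. The part of these markers in the values was not tested.

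HF-SC was set against HF-ORS to compare sheath cells with and without Sox9-GFP. Of the 37 genes, 9 were higher in HF-SC and 2 lower, where 2.66% of all genes tested were called higher, 1.73% lower and 4.4% either way. Adamts17, which binds fibrillin and is mutated in a human disorder of short stature and eye lens, had 62.9 and 59.7 FPKM in HF-SC and 0.501 and 2.74 in HF-ORS (log2 difference 4.72 ± 0.78, adjusted p = 0.000876). No library elsewhere was above 26.5 FPKM. Adamts18 had 8.18 and 7.12 FPKM in HF-SC and 0 and 0.174 in HF-ORS (2.99 ± 0.49, adjusted p = 0.000755). Mmp2 had 32.6 and 17.8 FPKM in HF-SC and 1.63 and 6.05 in HF-ORS (2.55 ± 0.57, adjusted p = 0.0114). Mmp11 had 3.82 and 7.31 FPKM in HF-SC and 0 and 0.398 in HF-ORS (2.42 ± 0.53). All 4 genes had their HF-SC libraries above both HF-ORS libraries, as had the other 7 called genes in the direction of their call. The libraries of uncalled genes such as Adamts9 and Adamtsl5 did not overlap either.

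Timp3 had 346 and 390 FPKM in HF-SC and 151 and 131 in HF-ORS (1.38 ± 0.38, adjusted p = 0.0415). Its call was lost without any 1 of the 4 libraries (adjusted p of 0.085 to 0.19), with a pseudocount of 0.1 and without the filter. Timp2 had 29.9 and 28.5 FPKM in HF-SC and 12.7 and 15.1 in HF-ORS (1.02 ± 0.24, adjusted p = 0.0180). That call was lost with a pseudocount of 5, with quantile normalization, and without either HF-SC library or HF-ORS replicate 1. Timp1 and Timp4 were below 1 FPKM in both populations. Adamtsl1 had 9.53 and 8.15 FPKM in HF-SC and 3.75 and 1.64 in HF-ORS (1.47 ± 0.35). Its call was lost with a pseudocount of 0.1 or 5, and without either HF-SC library or HF-ORS replicate 2. Below 5 FPKM, Adamts15 was also higher, and Adamts19, at 4.92 and 4.81 FPKM in HF-SC, was listed at 0 in both HF-ORS libraries. Adamts14 was lower in HF-SC, with 9.46 and 6.74 FPKM against 48.7 and 37.8 in HF-ORS (-2.29 ± 0.45, adjusted p = 0.00422). The calls of Adamts14, Adamts15, Mmp2 and Mmp11 were each lost without HF-ORS replicate 1 and without 1 of the HF-SC libraries. The other gene counted as lower, Mmp3 or stromelysin 1, reached 1 FPKM only in HF-ORS and in 1 Epi library, so it passed the filter through the group where it is high and its values are a description: 0.246 and 0.970 FPKM in HF-SC and 4.53 and 7.65 in HF-ORS. Adamts1 was at its highest in this line but not called, with 276 and 234 FPKM in HF-SC and 257 and 182 in HF-ORS.

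Krt1, a keratin of the suprabasal epidermis, averaged 220 FPKM in HF-SC, 1253 in HF-ORS and 3038 in Epi. Its partner Krt10 averaged 203 FPKM in HF-SC, 1075 in HF-ORS and 3191 in Epi. Suprabasal markers summed to 529 and 409 FPKM in HF-SC and 2944 and 1847 in HF-ORS, with 2 of 5 tested called lower in HF-SC. Higher in HF-SC were 3 of 7 outer root sheath and bulge, 2 of 8 papilla and 1 of 8 fibroblast markers. So were 1 of 7 hair matrix and 1 of 8 Schwann cell markers, and 2 of 10 leukocyte markers were lower. The part of all these markers in the differences, Adamts14 included, was not tested. Leukocyte markers summed to 38.9 and 35.1 FPKM in HF-SC and 34.5 and 48.4 in HF-ORS, against at most 21.1 in the populations outside this line other than Neg. With the fit restricted to the 4 libraries of this line 3 genes were called (Adamts17, Timp3 and Adamts14), beside 108 of all 11804 genes tested there against 662 in the fit of all libraries. With a pseudocount of 5 the count was 5. The count was 6 without HF-SC replicate 1, 7 without HF-SC replicate 2 and 5 without HF-ORS replicate 1. Among regulators, Pcsk6, a proprotein convertase, was higher in HF-SC (means of 26.1 FPKM in HF-SC and 2.13 in HF-ORS) and Klk8 lower (4.85 and 14.8). Adam8 was lower in HF-SC, with 3.33 and 2.95 FPKM against 42.2 and 27.1 in HF-ORS.

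**Figure D5:**
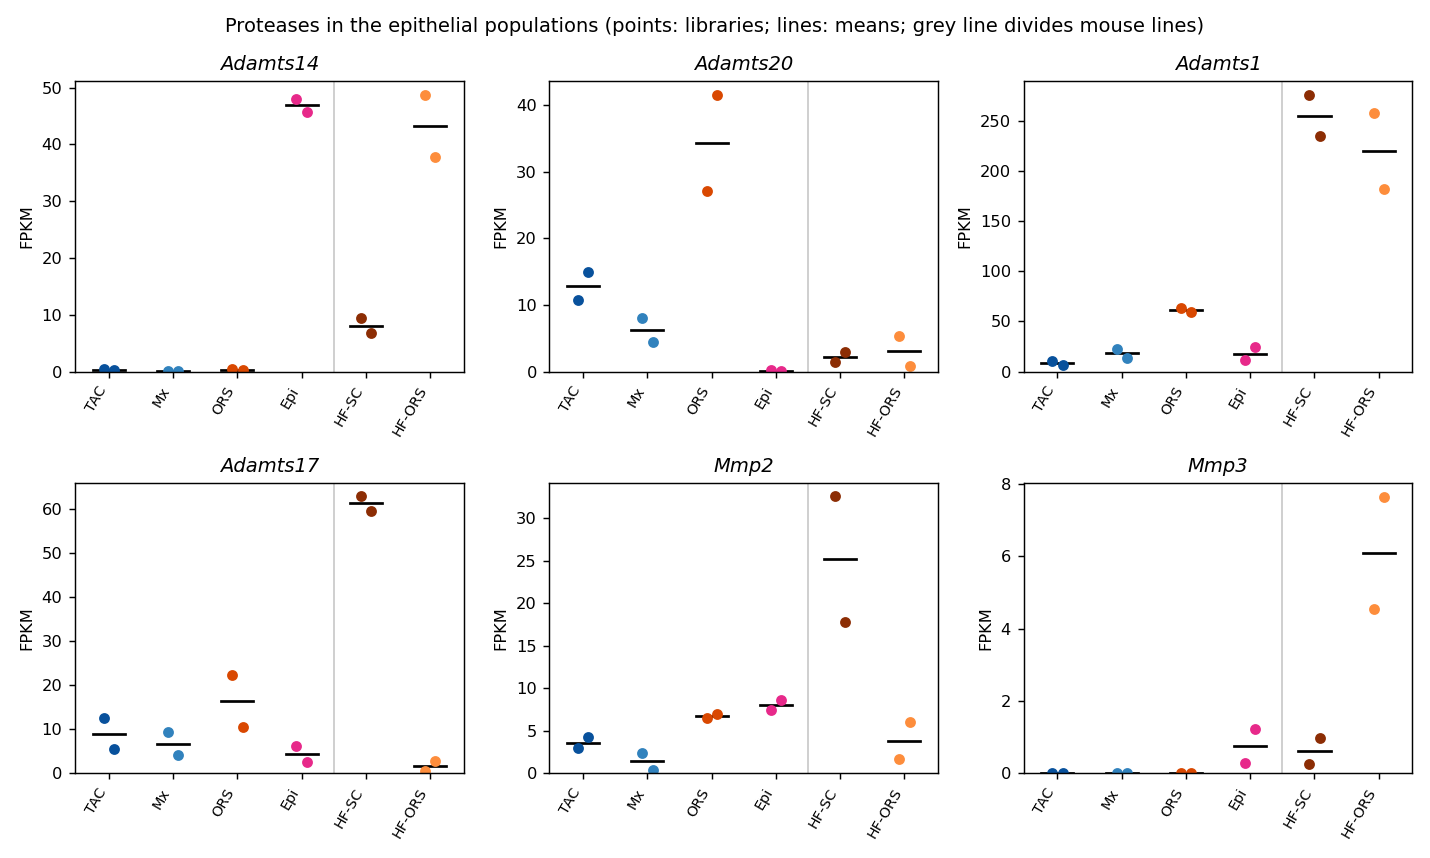
FPKM of 6 protease genes in TAC, Mx, ORS and Epi and, right of the grey line, in HF-SC and HF-ORS of the Sox9-GFP line, with points for libraries, black lines for means and axes that differ between panels. Adamts14 is high in Epi and HF-ORS, Adamts20 in ORS, and Adamts17 and Mmp2 in HF-SC, where they reach 62.9 and 32.6 FPKM.

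Mmp3 belongs to a run of 10 Mmp genes on chromosome 9, from 7272514 to 7699585 in GRCm38.p6 (427.1 kb), which holds Mmp13, Mmp12, Mmp1b, Mmp3, Mmp1a, Mmp10, Mmp8, Mmp27, Mmp20 and Mmp7. Several of these genes are known to be induced by the transcription factor AP-1 in wounded or inflamed skin. Nearly all were low here: only Mmp3 in HF-ORS and Mmp27 in DF reached a mean of 5 FPKM, and Mmp1a and Mmp7 were listed at 0 in all 28 libraries. The values that stood out came from HF-ORS, where Mmp10 had 4.15 and 0.770 FPKM against 0.134 and 0 in HF-SC, and Mmp13 had 1.91 and 1.88 against 0.401 and 1.71. Mmp12 had 0.0440 and 1.74 FPKM in HF-ORS and was listed at 0 in HF-SC, and Mmp1b, with which it shares exon bases on the other strand, had 0.411 and 0.130 in HF-ORS and was listed at 0 in all other libraries. Outside the Sox9-GFP line no library was above 1.24 FPKM for Mmp3, 0.0521 for Mmp10 or 0.0402 for Mmp13.

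Shown are the 120 bases before the RefSeq start of the 3 genes of the run with the highest means in HF-ORS and of Mmp27, which was measured in DF, all GRCm38.p6, plus strand, 5′ to 3′. Capitals mark the AP-1 motif TGANTCA, searched on both strands. The windows are chr9:7445702-7445821 for Mmp3, chr9:7502222-7502341 for Mmp10, chr9:7272394-7272513 for Mmp13 and chr9:7571276-7571395 for Mmp27.
Mmp3: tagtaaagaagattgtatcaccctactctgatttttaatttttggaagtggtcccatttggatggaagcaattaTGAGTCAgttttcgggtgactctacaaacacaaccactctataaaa
Mmp10: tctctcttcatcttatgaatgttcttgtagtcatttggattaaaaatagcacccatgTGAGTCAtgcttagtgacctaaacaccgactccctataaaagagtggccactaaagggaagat
Mmp13: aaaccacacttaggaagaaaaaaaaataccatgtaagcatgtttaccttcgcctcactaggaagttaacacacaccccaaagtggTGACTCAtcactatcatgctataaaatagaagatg
Mmp27: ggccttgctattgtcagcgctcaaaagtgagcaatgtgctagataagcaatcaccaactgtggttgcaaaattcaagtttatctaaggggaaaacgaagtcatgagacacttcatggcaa
The motif starts 46 bases before the start site in Mmp3, 63 in Mmp10 and 35 in Mmp13, and these letters are not in the Mmp27 window. In the 250 bases before the start, 8 of the 10 genes of the run (80.0%) held TGANTCA, all but Mmp8 and Mmp27, and 0 of the 26 other family members with a promoter entry did. Of all 27025 genes with an entry 7.82% held it, or 6.75% of 32851 promoters. TATAAA, which does not overlap with it, was in 70.0% of the run, 11.5% of the other members and 14.3% of all genes. A match of letters is a description and not a binding site.

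Promoters of the members outside this run held more CG pairs in the median, and those of Timp3 and Adamts14 were picked as examples. The 120 bases before the start of Timp3 (chr10:86300292-86300411, plus strand), highest in ORS, and of Adamts14 (chr10:61273420-61273539, minus strand), the Epi signature gene, are printed 5′ to 3′ with each CG pair in capitals.
Timp3: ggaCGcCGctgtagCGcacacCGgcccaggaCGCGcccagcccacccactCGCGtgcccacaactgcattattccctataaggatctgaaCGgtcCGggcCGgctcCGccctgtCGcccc
Adamts14: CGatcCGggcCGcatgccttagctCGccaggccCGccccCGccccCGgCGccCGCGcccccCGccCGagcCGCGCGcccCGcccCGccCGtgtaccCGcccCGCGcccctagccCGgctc
They hold 13 CG pairs in Timp3 and 22 in Adamts14. Over the 250 bases before the start, the median number of CG pairs was 15 in members outside the run on chromosome 9, 1 in the run and 6 in all promoters. The number was 18 in Timp3 and 35 in Adamts14, and 34 in Adamts2 and 6 in Adamts12, both called higher in mesenchyme. A link between CG pairs and populations was not tested. Entries were found for 36 of the 51 genes, and promoter methylation was not measured.

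The papilla subtypes were compared within their reporter lines. None of the 37 genes was called by limma in G/AA-DP against ZZ-DP, with 0 at an unadjusted p under 0.05, where 0.00664% of all genes tested (1 gene) were called. In G-DP against AA/ZZ-DP limma also called none, with 4 at an unadjusted p under 0.05, where 0.412% of all genes tested were called higher, 0.093% lower and 0.505% either way. Timp1 was listed at 0 in both G-DP libraries and had 4.19 and 1.21 FPKM in AA/ZZ-DP (adjusted p = 0.252). Timp3 had 64.8 and 70.3 FPKM in G-DP and 114 and 136 in AA/ZZ-DP (log2 difference -0.87 ± 0.38, adjusted p = 0.533), and in the Sox2-GFP line 67.3 and 146 in G/AA-DP and 101 and 51.6 in ZZ-DP. Timp2 had 61.4 and 59.0 FPKM in G-DP and 87.5 and 71.1 in AA/ZZ-DP (-0.38 ± 0.24), and 84.8 and 63.2 in G/AA-DP and 74.3 and 97.1 in ZZ-DP (-0.21 ± 0.24). With 2 libraries a group, these missing calls do not show that the subtypes are alike. Melanocyte markers, 5 of 8 of them called higher in G-DP, summed to 1076 and 1023 FPKM in G-DP and 53.1 and 69.4 in AA/ZZ-DP, and their part was not tested. Plat, high in Mc, was the 1 regulator called, with 40.9 and 32.0 FPKM in G-DP and 8.59 and 6.68 in AA/ZZ-DP.

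Several members were high across all papilla sorts. Over the 10 papilla libraries, Mmp2 ran from 35.9 to 136 FPKM with a median of 61.1, Mmp14 from 49.9 to 106 with a median of 71.1, and Timp2 from 59.0 to 97.1 with a median of 75.2. Adamts9 ran from 16.7 to 51.5 FPKM with a median of 44.4, Adamts10 from 9.002 to 42.9 with a median of 17.0, Mmp19 from 6.83 to 17.6, Mmp17 from 4.68 to 23.2 and Adamts5 from 8.22 to 18.4. The lowest Adamts9 value was that of DP replicate 1 and the 2 lowest Adamts10 values those of DP, both of the K14-H2BGFP line, and the lines were not tested against one another.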

How the data were processed

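Values were FPKM per gene, as the authors deposited them in 1 table of 23235 rows, of which 220 identical rows were dropped. Per the submitters' processing notes, TopHat2 2.0.3, Bowtie2 and Cufflinks 2.1.1 were used with the mm10 build. The sources used here give neither depth nor strand handling. Differences were tested on log2(FPKM + 1) with limma 3.58.1 (R 4.3.3, trended moderation), in 1 fit of all 28 libraries with a mean per population, for the 15052 genes at 1 FPKM or more in at least 2 libraries, and adjusted by Benjamini-Hochberg over all of them in each of 10 comparisons. The fit was tested on simulated data. Several comparisons share libraries. Genes averaging 5 FPKM or more were named, with both values if called, and all Timp genes. The genes and lists were chosen with earlier results of these data known. Alternatives were a pseudocount of 0.1 or 5, no filter, a filter at 5 FPKM, quantile normalization, 1 mouse line only, a replicate block, and leaving out each library. Promoters and positions came from RefSeq (GRCm38.p6), exon overlaps from GENCODE M21.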

Additional observations from a re-analysis of the deposited data

How the results depend on the processing

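No named call reversed under any alternative run, and 48 of 83 were lost under at least 1 of them, 29 of these when 1 library was left out. Counts of called genes moved by over 1.5 times in these cases. With a pseudocount of 5 the counts were 13 for mesenchyme against epithelium, 1 for DP against DF, 1 for Neg, 5 for HF-SC against HF-ORS, and 1 signature gene. With a pseudocount of 0.1 they were 2 for DP against DF and 1 for TAC against Mx (Mmp16). With the libraries of its own line alone HF-SC against HF-ORS gave 3. Leaving out 1 library gave 1 to 4 for DP against DF, 2 to 6 for Neg, 2 to 8 for Mx against ORS, 5 to 9 for HF-SC against HF-ORS and 1 to 3 signature genes. Low pseudocounts raise and high ones shrink the differences of low genes, and the cause of the other changes was not tested. With the replicate number as a block, TAC against Mx gave 1 (Adamtsl5, adjusted p = 0.0165). This block added Adamtsl5 to Mc against DF (0.00175) and to HF-SC against HF-ORS (0.03), Adamts10 to ORS against Epi (0.0256), Adamts1 to Neg (0.0403), and Mmp2 (0.0404), Mmp14 (0.00867) and Adamts12 (0.0424) to Mx against ORS, and it ended the call of Timp1 in Mc against DF (0.0515). Same-numbered libraries correlated over 0.1 in 27 of 28 pairs of the K14-H2BGFP line (0.0574 to 0.275). They correlated at 0.285 and 0.283 in the Sox2-GFP and Crabp1-GFP lines and at 0.071 in the Sox9-GFP line. The Sox2-GFP and Crabp1-GFP lines thus met a rule of every pair over 0.1 and the others did not. Libraries of different lines correlated as well, at 0.291 for ZZ-DP with AA/ZZ-DP, so this measure cannot identify pairs within a line. The numbers were not taken to pair libraries in any line. Over all genes, a pseudocount of 5 gave 1907 calls for mesenchyme against epithelium, against 3917, and with a pseudocount of 0.1 the share of higher calls in DP against DF was 24.7%, against 36.4%. Depth is unknown and 2 libraries a group limit every call.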

Other observations

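A few genes of the families were seen mainly in 1 kind of sort at low levels, named after their values were seen. Mmp25, a membrane-type MMP known from neutrophils, ran from 0.450 to 2.01 FPKM over the 10 papilla libraries with a median of 1.39. It was listed at 0 in both libraries of DF, Mc, Epi, ORS, Mx and TAC, had 0 and 0.0324 FPKM in Neg, and had 1.11 and 0.584 FPKM in HF-SC and 0 and 0.183 in HF-ORS. Leukocyte markers summed to at most 8.2 FPKM in the papilla libraries. Adamts16 had 1.29 and 0.847 FPKM in DF and 0.639 and 0.601 in Neg, and at most 0.168 in the papilla libraries. Mmp21 had 0.895 and 2.56 FPKM in HF-SC and at most 0.364 outside the Sox9-GFP line. Mmp9, a gelatinase of leukocytes and of bone, was at most 0.285 FPKM in any library, and Mmp8 at most 0.274.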
